A study of Mus musculus with 10 samples.

Results

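The genes of glycolysis and of the hypoxia response were followed in 10 tumors of B16, a melanoma line of C57BL/6 origin that is grown as a transplant in mice. The members were a list of 34 genes, covering glucose and lactate transporters, the enzymes of glycolysis, pyruvate dehydrogenase kinases and other genes known to respond to hypoxia, and 31 of the 18193 genes measured here were on it. The 5 tumors of the wild-type group and the 5 of the Bach2-deficient group were all on the C57BL/6 background with no treatment named, and each was read on 1 Affymetrix Mouse430_2 array. Bach2 encodes a transcriptional repressor of lymphocytes. The labels give no age or sex, do not name the allele, and do not say whether the deficiency lay in the host, in the tumor cells or in both. Whole tumors were dissociated before RNA was extracted, so each value mixes melanoma cells with every other cell of the tumor. Each gene stands on its brightest single-gene probe set. Values are log2 levels made by the authors with RMA, changes are Bach2-deficient minus wild type, and rose and fell are used for genes with a limma adjusted p under 0.05 over all 18193 genes. Gpi1 and Eno1 are not analysed here, since neither symbol stood alone on a probe set, and Gapdh was read by array control probe sets alone.

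Glycolysis splits glucose into pyruvate, and lactate dehydrogenase turns pyruvate into lactate, which leaves the cell through monocarboxylate transporters. Most steps are run by isoenzymes, the products of separate genes with different tissue distributions and kinetics. Under low oxygen, hypoxia-inducible factor (HIF) is no longer hydroxylated and degraded, and it induces glucose transporters, most glycolytic genes, and genes of mitochondrial turnover, pH control and collagen hydroxylation. Many of the same genes are raised when T cells and macrophages are activated, and cultured melanoma lines such as B16 are themselves strongly glycolytic.

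HIF binds DNA at a short core that includes the letters ACGTG. The 250 bases before the RefSeq start (build GRCm38.p6) are shown for 6 members, chosen to set genes that rose (Slc16a3, Egln3, P4ha1) beside genes that fell (Car9, P4ha2) and 1 that passed in neither direction (Ldha). Capitals mark ACGTG on the printed strand or, as CACGT, on the other strand, and both overlap in CACGTG. The windows are chr11:120948817-120949066 (+ strand), chr12:54203875-54204124 (- strand), chr10:59323046-59323295 (+ strand), chr4:43506776-43507025 (+ strand), chr11:54100674-54100923 (+ strand) and chr7:46845554-46845803 (+ strand), each printed 5′ to 3′ along the gene.
Slc16a3: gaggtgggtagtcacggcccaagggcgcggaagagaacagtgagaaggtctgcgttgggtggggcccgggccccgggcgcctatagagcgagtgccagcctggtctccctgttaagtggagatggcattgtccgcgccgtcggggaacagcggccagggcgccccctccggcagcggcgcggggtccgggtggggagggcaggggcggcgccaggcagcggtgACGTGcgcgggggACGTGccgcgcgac
Egln3: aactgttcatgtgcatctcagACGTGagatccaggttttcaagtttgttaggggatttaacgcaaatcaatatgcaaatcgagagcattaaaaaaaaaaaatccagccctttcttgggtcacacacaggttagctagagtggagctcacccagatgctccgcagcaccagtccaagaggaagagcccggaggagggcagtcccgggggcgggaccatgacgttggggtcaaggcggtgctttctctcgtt
P4ha1: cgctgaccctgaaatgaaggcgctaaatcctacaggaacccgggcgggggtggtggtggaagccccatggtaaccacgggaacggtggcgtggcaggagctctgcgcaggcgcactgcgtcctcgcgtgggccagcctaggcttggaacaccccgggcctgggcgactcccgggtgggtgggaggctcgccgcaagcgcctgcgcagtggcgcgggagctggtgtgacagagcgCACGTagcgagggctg
Car9: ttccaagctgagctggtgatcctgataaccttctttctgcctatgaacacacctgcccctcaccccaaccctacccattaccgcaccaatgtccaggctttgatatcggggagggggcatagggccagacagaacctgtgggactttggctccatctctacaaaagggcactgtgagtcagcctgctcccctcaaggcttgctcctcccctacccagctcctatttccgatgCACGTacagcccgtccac
P4ha2: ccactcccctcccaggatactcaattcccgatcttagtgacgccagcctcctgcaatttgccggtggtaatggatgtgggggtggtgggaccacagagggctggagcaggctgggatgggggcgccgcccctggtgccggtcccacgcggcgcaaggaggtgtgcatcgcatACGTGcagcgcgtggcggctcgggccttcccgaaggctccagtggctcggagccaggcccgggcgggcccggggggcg
Ldha: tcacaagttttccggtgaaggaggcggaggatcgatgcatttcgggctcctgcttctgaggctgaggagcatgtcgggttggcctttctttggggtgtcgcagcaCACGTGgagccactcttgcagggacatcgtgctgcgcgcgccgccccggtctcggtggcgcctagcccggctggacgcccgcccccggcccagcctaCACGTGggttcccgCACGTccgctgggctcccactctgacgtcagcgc
Slc16a3 holds 2 matches and Ldha 5, while Egln3, P4ha1, Car9 and P4ha2 hold 1 each. The 5 of Ldha include 2 stretches of CACGTG, each counted on both strands. The window before another RefSeq start of Ldha, not shown, holds 0. Of the 32 members with a window in the table, 19 (59.4%) held a match in at least 1 window, where 18.5% of the 27025 genes in it did. Those 27025 genes were not matched to the members in brightness or base content. A match was found for 6 of 9 members that rose, 3 of 4 that fell and 10 of 16 that did not pass. It was found for 0 of the 3 members without a single-gene probe set. The motif thus occurred before genes that moved in opposite directions, and before bright genes with little change. A match is a description of letters and not a binding site. Slc2a3 and Ndrg1 had no entry.

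Some features of the arrays moved with the genotype labels. Over all genes 28.7% were called (16.3% rose and 12.4% fell). Bach2 itself read 6.96 ± 0.76 in wild type and 5.89 ± 0.55 in Bach2-deficient tumors (limma adjusted p = 0.0551), by a probe set that need not lie in the deleted part. The female-specific RNA Xist read 11.36 to 12.23 across wild type and was as high on Bach2-deficient replicate 2 (11.86), and low on the other 4 Bach2-deficient arrays (4.76 to 6.61), so 4 tumors of 1 group differ from the rest in sex markers. The poly-A spike controls read 11.02 to 11.39 in wild type and 9.21 to 9.43 in Bach2-deficient tumors (exact permutation p = 0.00794, the smallest that 5 against 5 arrays allow), and the hybridization controls differed by -0.64 (exact permutation p = 0.00794). As a measure of RNA integrity, the 3′ minus 5′ difference of the Gapdh controls was 0.59 in both groups, and that of the Actb controls was 1.00 in wild type and 0.75 in Bach2-deficient tumors (exact permutation p = 0.0556, 0.0741 adjusted over the 4 control measures). The melanocyte list, which checks the tissue label, averaged 12.27 to 12.49 in wild type and 11.78 to 12.46 in Bach2-deficient tumors, so its markers were bright in every tumor, and 3 of its 10 genes fell. Leukocyte genes rose throughout their list (8 of 8), with a list mean of 10.60 to 11.51 in wild type and 12.15 to 12.81 in Bach2-deficient tumors, as did 7 of 7 macrophage and monocyte genes (8.94 to 10.11 in wild type and 10.71 to 11.68 in Bach2-deficient tumors) and 7 of 7 T cell genes (6.91 to 8.59 in wild type and 10.16 to 11.35 in Bach2-deficient tumors). Neutrophil genes rose for 2 of 8 (7.67 to 8.24 in wild type and 7.67 to 9.60 in Bach2-deficient tumors), and 3 of 4 red cell genes fell (7.18 to 9.54 in wild type and 4.17 to 5.79 in Bach2-deficient tumors). Of 8 endothelial genes 4 fell and 1 rose, and of 7 cell cycle genes 1 fell. The labelling controls separated the groups completely, so their part in the results cannot be told apart from genotype. Values with a melanocyte covariate and with a term for Xist are given after the members' own.

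Glycolytic and hypoxia genes did not move as a block. Of the 31 measured members, 11 rose (35.5%, where 16.3% of all genes did) and 4 fell (12.9%, where 12.4% of all genes did). In such bulk RNA, fewer cells of a type cannot be told apart from less RNA per cell. The median change of the members was 0.05, with -0.06 over all genes. Hk3, Slc16a3, Pfkfb3, Egln3, Slc2a3, Pfkfb4, Pfkp, Ndrg1, Hk1, P4ha1 and Slc2a1 rose, and P4ha2, Ldhb, Pfkm and Car9 fell. The groups did not overlap for 6 members that rose (11.2% of all genes were so placed above) and for 1 that fell (7.67% of all genes were so placed below). No member lay in the dimmest 30% of genes. Leaving those genes out kept 11 members that rose and 4 that fell, where 23.2% of the 12735 remaining genes rose and 16.4% fell. With each array centred on the median of its 18193 gene values, 8 members rose and 8 fell. This centring moved the median change of all genes from -0.06 to -0.22. Over all genes 39.0% were then called, with 2288 that rose (12.6%) and 4816 that fell (26.5%) in place of 2962 and 2264. Aldoc, Pgam1, Eno2 and Adm then fell, and Slc2a1, Hk1 and P4ha1 did not pass. When 1 array was left out, 7.63% to 15.4% of all genes fell. Without Bach2-deficient replicate 1, 6 members fell, and without wild-type replicate 1, 4 or 5 or Bach2-deficient replicate 2, 3, 4 or 5, 2 members fell.

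**Figure D1:**
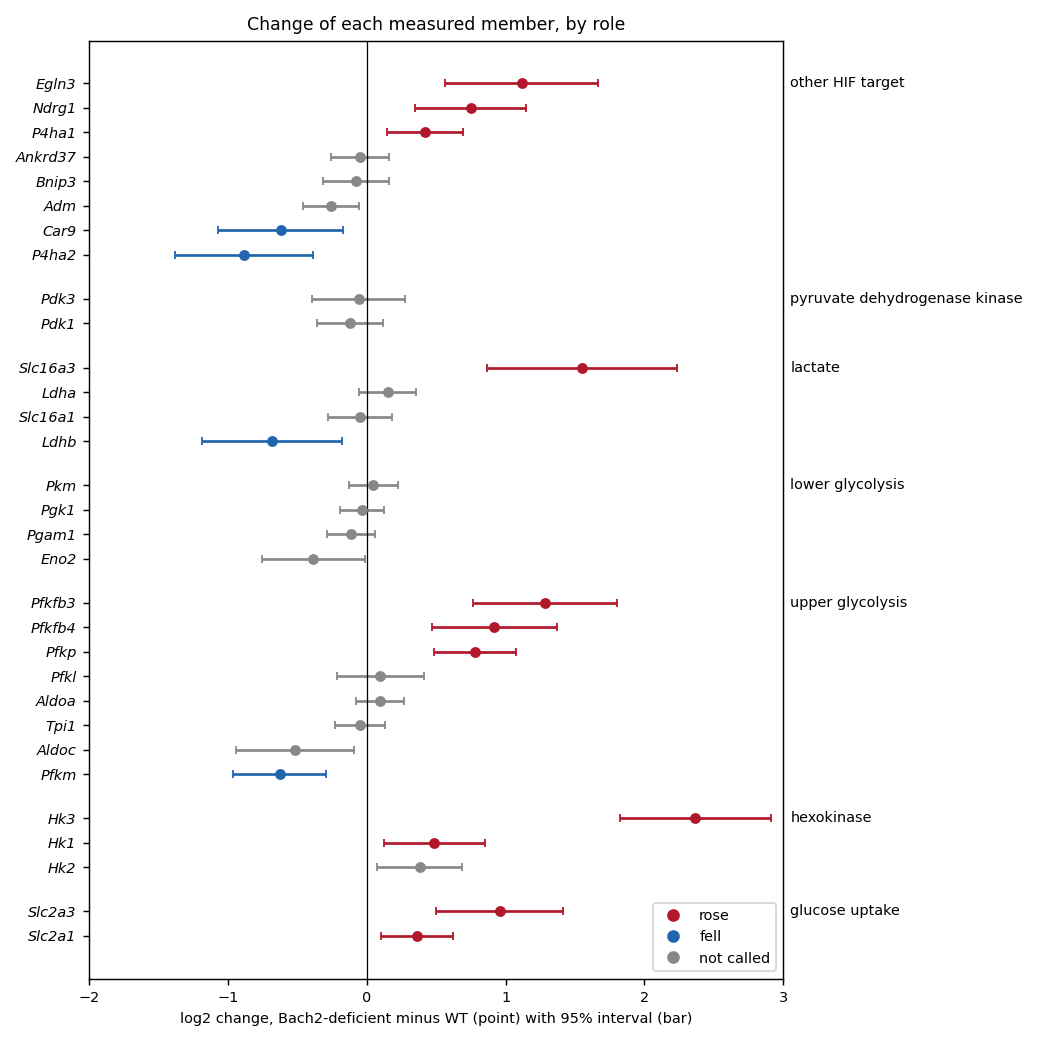
Log2 change of each measured member, Bach2-deficient minus wild type, in log2 units on the horizontal axis, by role; points are limma estimates, bars their 95% intervals, red marks members that rose, blue those that fell and grey those that did not pass. Hk3 lies farthest to the right at 2.37 and P4ha2 farthest to the left at -0.88, while Pkm, Pgk1 and Pgam1 lie close to 0.

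Both glucose transporters rose. Slc2a3 encodes GLUT3, a high-affinity transporter of neurons and leukocytes, and read 10.84, 11.02, 11.11, 11.53 and 11.44 in the wild-type tumors and 11.51, 12.37, 12.59, 12.09 and 12.16 in the Bach2-deficient tumors, given here and below as log2 levels in the order of replicates 1 to 5. The lowest Bach2-deficient value, that of replicate 1, lay just under the highest wild-type value, and the other 4 lay above it. The change was 0.96 (SE 0.21, limma adjusted p = 0.00692), a 1.94-fold rise. Slc2a1 encodes GLUT1, the widely expressed transporter that HIF induces, and read 12.72, 12.63, 12.64, 13.03 and 13.04 in the wild-type tumors and 13.02, 13.15, 13.31, 13.11 and 13.28 in the Bach2-deficient tumors. Again replicate 1 alone lay within the wild-type range, and the change was 0.36 (SE 0.12, limma adjusted p = 0.0395). It did not pass without wild-type replicate 1, 2 or 3 or Bach2-deficient replicate 2, 3, 4 or 5, and the 10 fits with 1 array removed gave 0.32 to 0.42 with adjusted p up to 0.0894.

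The 3 hexokinases, which trap glucose as glucose 6-phosphate, differed most in Hk3. Hk3, the form of myeloid cells, read 6.77, 6.49, 7.22, 7.04 and 7.15 in the wild-type tumors and 8.38, 9.47, 9.54, 9.62 and 9.47 in the Bach2-deficient tumors. All 5 Bach2-deficient tumors lay above every wild-type tumor, and replicate 1 stood below the other 4. The change of 2.37 (SE 0.25, limma adjusted p = 0.000249), a 5.15-fold rise, was the largest of any member. Hk1, the form of most tissues, read 8.86, 8.10, 8.41, 8.65 and 8.97 in the wild-type tumors and 8.93, 9.04, 9.30, 9.14 and 9.001 in the Bach2-deficient tumors. It rose by 0.49 (SE 0.16, limma adjusted p = 0.0476), from 8.60 ± 0.35 to 9.08 ± 0.14 (mean ± SD, n = 5 each), with 4 Bach2-deficient tumors above all wild-type tumors. Its call was lost without wild-type replicate 2, 3 or 4 or Bach2-deficient replicate 2, 3, 4 or 5 (0.36 to 0.58, adjusted p up to 0.105), and also with repeated quantile normalization (0.31, adjusted p = 0.157) and trended robust moderation (adjusted p = 0.0577). Hk2, the insulin- and HIF-responsive form that many tumors carry, read 11.81, 11.71, 11.70, 12.30 and 12.08 in the wild-type tumors and 12.21, 12.46, 12.28, 12.10 and 12.47 in the Bach2-deficient tumors. Its change of 0.38 (95% interval 0.08 to 0.69) did not pass (adjusted p = 0.0611), and it passed without wild-type replicate 4 (0.48, adjusted p = 0.0174), with trended robust moderation (adjusted p = 0.0404) and with array weights (0.40, adjusted p = 0.0426). Beside Hk3, the mean of the macrophage and monocyte list was 1.73 higher in Bach2-deficient tumors and that of the neutrophil list 0.67 higher, and their part in the rise was not tested.

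**Figure D2:**
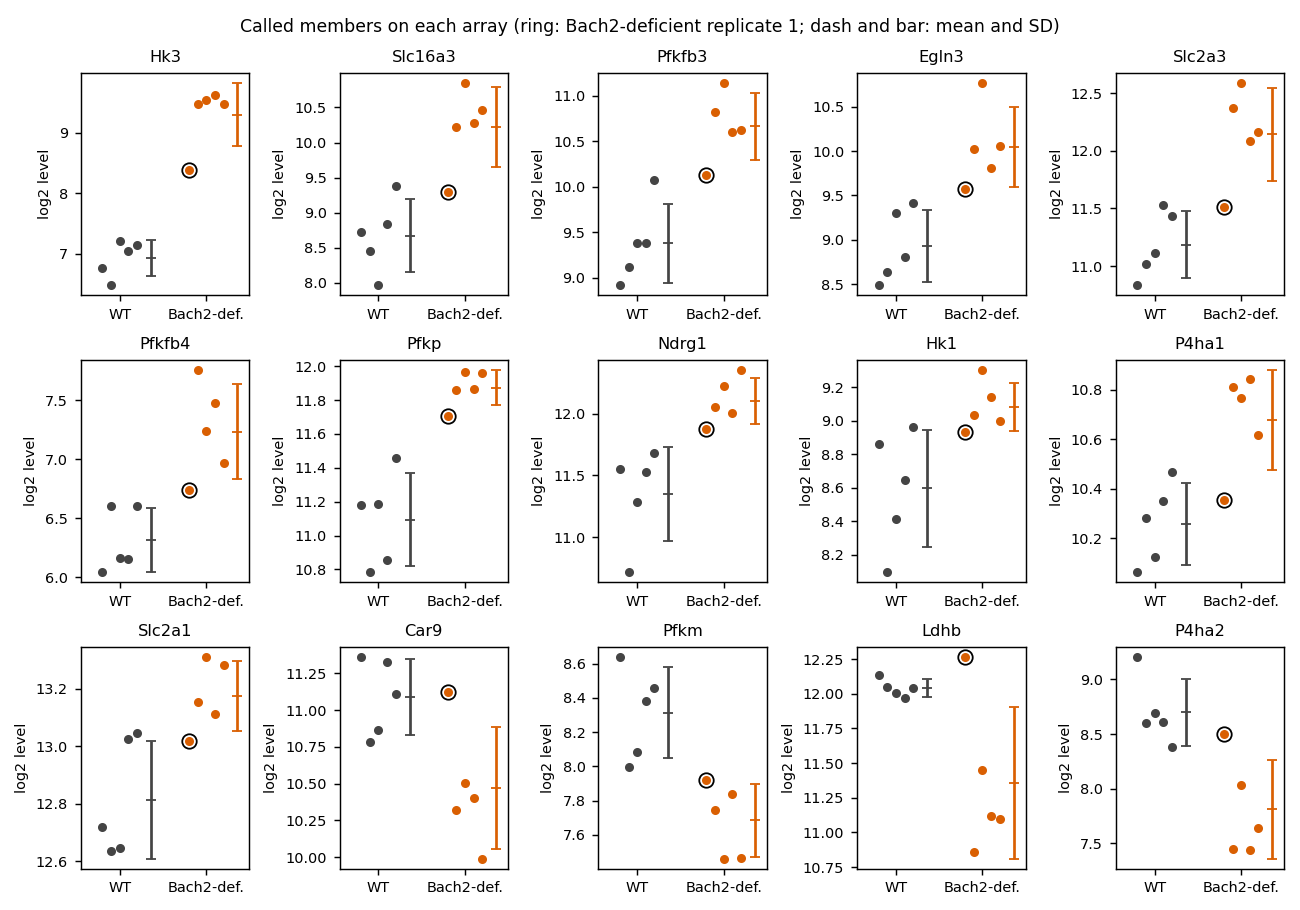
Log2 level (vertical axis, a separate range in each panel that does not start at 0) of the 15 members that rose or fell, on each of the 5 wild-type (grey) and 5 Bach2-deficient (orange) arrays; the dash and bar are the mean and SD, and the ring marks Bach2-deficient replicate 1. Hk3 separates completely, and in Ldhb and Car9 the ringed array lies among or above the wild-type arrays.

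Phosphofructokinase, the committed step of glycolysis, changed in its isoenzymes in opposite directions. Pfkp, the platelet form that is also common in lymphocytes and tumors, read 11.18, 10.79, 11.19, 10.86 and 11.46 in the wild-type tumors and 11.71, 11.86, 11.96, 11.86 and 11.96 in the Bach2-deficient tumors. It rose by 0.78 (SE 0.13, limma adjusted p = 0.00223), and the groups did not overlap. Pfkm, the muscle form, read 8.64, 7.996, 8.09, 8.38 and 8.46 in the wild-type tumors and 7.92, 7.74, 7.46, 7.84 and 7.46 in the Bach2-deficient tumors. Every Bach2-deficient value lay below every wild-type value, a change of -0.63 (SE 0.15, limma adjusted p = 0.0115) or 1.54-fold lower. Pfkl, the liver form, changed by 0.10 (95% interval -0.22 to 0.41) and did not pass. Beside Pfkm, the skeletal muscle markers had a list mean of 4.73 to 4.94 in wild type and 4.60 to 4.71 in Bach2-deficient tumors, and 5 of 8 were among the dimmest 30% of genes. The 2 of 8 that fell read low, Myh1 with means of 3.73 in wild type and 2.89 in Bach2-deficient tumors and Tnnt3 with 5.18 and 4.55. The other 6 did not pass, with changes from -0.22 (Actn3) to 0.10 (Ckm). The part of these markers in the fall of Pfkm was not tested.

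Pfkfb3 and Pfkfb4, which encode kinases that make fructose 2,6-bisphosphate, the allosteric activator of phosphofructokinase, rose. Pfkfb3, the inducible form with high kinase activity, read 8.92, 9.12, 9.38, 9.38 and 10.08 in the wild-type tumors and 10.13, 10.82, 11.13, 10.60 and 10.63 in the Bach2-deficient tumors. Its change was 1.29 (SE 0.23, limma adjusted p = 0.00301), a 2.44-fold rise, with wild-type replicate 5 close below the lowest Bach2-deficient tumor. Pfkfb4, another isoform that hypoxia induces, read 6.05, 6.60, 6.16, 6.15 and 6.61 in the wild-type tumors and 6.73, 7.75, 7.24, 7.48 and 6.97 in the Bach2-deficient tumors. It rose by 0.92 (SE 0.20, limma adjusted p = 0.00765), again without overlap. Pfkfb2, a further kinase of this family that is no member and is named here after its value was seen, changed by -0.15 (95% interval -1.09 to 0.79) and did not pass. Aldolase, which cleaves fructose 1,6-bisphosphate, did not pass in either form. Aldoa, the main form, changed by 0.09 (95% interval -0.08 to 0.27). Aldoc, the brain form, read 10.21, 9.59, 9.01, 9.77 and 9.84 in the wild-type tumors and 9.38, 9.09, 9.15, 9.13 and 9.08 in the Bach2-deficient tumors, a change of -0.52 (95% interval -0.94 to -0.09, adjusted p = 0.0656). Aldoc passed without wild-type replicate 3 (-0.68, adjusted p = 0.00688), with repeated quantile normalization (-0.69, adjusted p = 0.0132) and with array weights (-0.58, adjusted p = 0.0157). It did not pass with the mean of all its probe sets (-0.32, adjusted p = 0.235). Triosephosphate isomerase, Tpi1, changed by -0.05 (95% interval -0.23 to 0.13).

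None of Pgk1, Pgam1, Eno2 and Pkm, the measured members of lower glycolysis up to pyruvate, passed the test with all arrays. Pgk1, phosphoglycerate kinase, read 13.36 to 13.39 in wild type and 13.27 to 13.42 in Bach2-deficient tumors, a change of -0.03 (95% interval -0.19 to 0.13). Pgam1, phosphoglycerate mutase, changed by -0.11 (95% interval -0.28 to 0.06), and Pkm, pyruvate kinase of muscle and tumor type, by 0.05 (95% interval -0.13 to 0.22). Eno2, the neuronal enolase that hypoxia also induces, changed by -0.39 (adjusted p = 0.108), with 4 of 5 Bach2-deficient tumors below the lowest wild-type tumor, and passed without Bach2-deficient replicate 1 (-0.52, adjusted p = 0.0157) and with array weights (-0.47, adjusted p = 0.0290). Gapdh was read by 3 array controls. The 3′ control read 13.74 to 13.91 in wild type and 13.91 to 13.94 in Bach2-deficient tumors, and the M control 13.39 to 13.67 and 13.69 to 13.74, so all 5 Bach2-deficient tumors were higher on both. They differed by 0.08 and 0.16 (exact permutation p = 0.00794 each, 0.0119 adjusted over the 3 controls, tested after the values were seen), and the 5′ control by 0.08 (exact permutation p = 0.103). With arrays centred on the median all 3 turned lower (-0.076, -0.0039 and -0.076) and did not pass. The 3′ and M controls also did not pass without Bach2-deficient replicate 1, 3 or 4 (0.080 to 0.084 and 0.15 to 0.16, adjusted p up to 0.0833), and the 5′ control passed without wild-type replicate 4 (0.11, adjusted p = 0.0238). Most of these genes were bright. Of the 31 members, 11 had a mean over 12, and 1 of them, Slc2a1, was called, where 35.0% of the 637 genes of that brightness were called. The highest value on any array was 14.4, and any part of brightness in the small changes was not tested.

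At the lactate steps, the 2 dehydrogenase subunits and the 2 transporters each split. Ldha, the subunit that favours lactate formation and a HIF target, read 13.02, 12.76, 12.90, 12.85 and 12.91 in the wild-type tumors and 13.24, 12.98, 13.07, 12.93 and 12.94 in the Bach2-deficient tumors. The groups overlapped, and the change of 0.15 did not pass (95% interval -0.06 to 0.36, adjusted p = 0.248). Ldhb, the subunit of oxidative tissues, read 12.14, 12.05, 12.005, 11.97 and 12.04 in the wild-type tumors and 12.27, 10.86, 11.45, 11.12 and 11.10 in the Bach2-deficient tumors. Wild-type tumors were tightly grouped, 4 Bach2-deficient tumors lay below all of them, and replicate 1 lay above all of them. The change was -0.68 (SE 0.23, limma adjusted p = 0.0462), and without that replicate it was larger (-0.91, adjusted p = 0.000550). With any other array left out the call was lost (-0.91 to -0.56 over all 10 such fits, adjusted p up to 0.110). Slc16a3 encodes MCT4, the lactate exporter of glycolytic cells and a HIF target, and read 8.73, 8.46, 7.97, 8.83 and 9.38 in the wild-type tumors and 9.30, 10.23, 10.84, 10.28 and 10.47 in the Bach2-deficient tumors. Only Bach2-deficient replicate 1 fell within the wild-type range, and the change was 1.55 (SE 0.31, limma adjusted p = 0.00479), a 2.93-fold rise. Slc16a1, encoding MCT1, changed by -0.05 (95% interval -0.28 to 0.18). The pyruvate dehydrogenase kinases, which keep pyruvate out of mitochondria, did not pass, with -0.12 (95% interval -0.36 to 0.12) for Pdk1, the HIF-responsive form, and -0.06 (95% interval -0.39 to 0.28) for Pdk3. The lactate steps thus held 1 member that rose, 1 that fell and 2 that did not pass.

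The remaining HIF-responsive members moved both ways. Egln3, the oxygen-sensing hydroxylase PHD3 that HIF itself induces, read 8.49, 8.63, 9.30, 8.81 and 9.42 in the wild-type tumors and 9.57, 10.03, 10.76, 9.81 and 10.06 in the Bach2-deficient tumors. It rose by 1.12 (SE 0.25, limma adjusted p = 0.00808) with no overlap, a 2.17-fold difference. Ndrg1, a stress-responsive gene induced by hypoxia, read 11.55, 10.72, 11.29, 11.53 and 11.68 in the wild-type tumors and 11.87, 12.05, 12.22, 12.003 and 12.35 in the Bach2-deficient tumors. It rose by 0.75 (SE 0.18, limma adjusted p = 0.0118), also with no overlap. Car9 encodes carbonic anhydrase IX, a cell-surface enzyme of pH control that is a standard marker of hypoxic tumor cells, and read 11.36, 10.78, 10.87, 11.32 and 11.11 in the wild-type tumors and 11.12, 10.32, 10.51, 10.40 and 9.99 in the Bach2-deficient tumors. Replicate 1 lay within the wild-type range and the other 4 below it, a change of -0.62 (SE 0.20, limma adjusted p = 0.0436). Its call was lost without wild-type replicate 1, 3, 4 or 5 or Bach2-deficient replicate 2, 3, 4 or 5 (-0.78 to -0.50, adjusted p up to 0.0995).

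Prolyl 4-hydroxylase, which hydroxylates collagen and has 2 HIF-responsive catalytic subunits among the members, changed in opposite directions. P4ha1 read 10.06, 10.28, 10.13, 10.35 and 10.47 in the wild-type tumors and 10.35, 10.81, 10.77, 10.84 and 10.62 in the Bach2-deficient tumors, with 4 Bach2-deficient tumors above all wild-type tumors and a change of 0.42 (SE 0.12, limma adjusted p = 0.0273). That call was lost without wild-type replicate 1 or 3 or Bach2-deficient replicate 2, 3 or 4 (0.37 to 0.50, adjusted p up to 0.0721), and with repeated quantile normalization (0.29, adjusted p = 0.0819). P4ha2 read 9.20, 8.60, 8.69, 8.61 and 8.38 in the wild-type tumors and 8.50, 7.45, 8.03, 7.44 and 7.64 in the Bach2-deficient tumors, with 4 Bach2-deficient tumors below all wild-type tumors and a change of -0.88 (SE 0.23, limma adjusted p = 0.0150). Bnip3, a mitophagy gene (-0.08, 95% interval -0.31 to 0.16), Ankrd37 (-0.05, 95% interval -0.26 to 0.16) and Adm, which encodes the vasodilator peptide adrenomedullin (-0.26, 95% interval -0.46 to -0.06), did not pass. All 3 are known HIF-induced genes. Adm passed without Bach2-deficient replicate 1 (-0.32, adjusted p = 0.0139) and with repeated quantile normalization (-0.30, adjusted p = 0.0374). It also passed with trended robust moderation (adjusted p = 0.0180) and with array weights (-0.30, adjusted p = 0.0182). It did not pass when _x_at and _s_at probe sets were left out (-0.21, adjusted p = 0.528) or with the mean of all its probe sets (-0.23, adjusted p = 0.274).

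Isoenzymes of the same step were then compared within each array, which asks whether 2 genes changed unequally and cancels any shift common to an array. Of 13 pairs with both genes measured, 10 differed between the groups at an adjusted p under 0.05, and for 6 of them the groups did not overlap. These counts are a description: the pairs were chosen with results of these data known, and no share over other pairs of genes was computed. Several pairs also share genes. Within the hexokinases and within the phosphofructokinases the last difference follows from the others, so the pairs are not separate results. Because probe sets differ in affinity, the size of a within-array difference is not a ratio of RNA amounts, and only its change between groups was read.

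The largest shifts were towards Hk3. Hk2 minus Hk3 was 5.05, 5.23, 4.48, 5.26 and 4.93 in wild type and 3.84, 2.99, 2.74, 2.48 and 2.99 in Bach2-deficient tumors, a change of -1.98 (SE 0.27; exact permutation p = 0.00794, adjusted over the pairs p = 0.0172). Hk1 minus Hk3 changed by -1.88 (SE 0.25; exact permutation p = 0.00794, adjusted over the pairs p = 0.0172), whereas Hk1 minus Hk2 changed by 0.10 with a 95% interval of -0.30 to 0.51. Among phosphofructokinases, Pfkp gained on Pfkm by 1.41 (SE 0.19; exact permutation p = 0.00794, adjusted over the pairs p = 0.0172). It also gained on Pfkl, as Pfkl minus Pfkp changed by -0.68, and Pfkl minus Pfkm changed by 0.72, both with an exact permutation p of 0.00794. These differences restate the changes of the genes themselves, in which Pfkp rose, Pfkl did not pass and Pfkm fell.

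Ldha minus Ldhb was 0.88, 0.71, 0.89, 0.88 and 0.86 in wild type and 0.98, 2.12, 1.62, 1.81 and 1.84 in Bach2-deficient tumors, a change of 0.83 (SE 0.19; exact permutation p = 0.00794, adjusted over the pairs p = 0.0172). Here replicate 1 (0.98) lay just above the highest wild-type value (0.89). On that array Ldha (13.24) and Ldhb (12.27) were each above every wild-type tumor, so it did not share the low Ldhb of the other Bach2-deficient tumors. Slc16a1 minus Slc16a3 changed by -1.60 (SE 0.35; exact permutation p = 0.0159, adjusted over the pairs p = 0.0206), with replicate 1 inside the wild-type range. P4ha1 minus P4ha2 changed by 1.31, Aldoa minus Aldoc by 0.61 and Slc2a1 minus Slc2a3 by -0.59, each with an exact permutation p of 0.0159 (adjusted p = 0.0206). The last was not called when _x_at and _s_at probe sets were left out (-0.38), nor was Aldoa minus Aldoc with the mean of all probe sets (0.37). Pfkfb3 minus Pfkfb4 (0.37, 95% interval -0.16 to 0.90) and Pdk1 minus Pdk3 (-0.06, 95% interval -0.38 to 0.25) were not called.

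**Figure D3:**
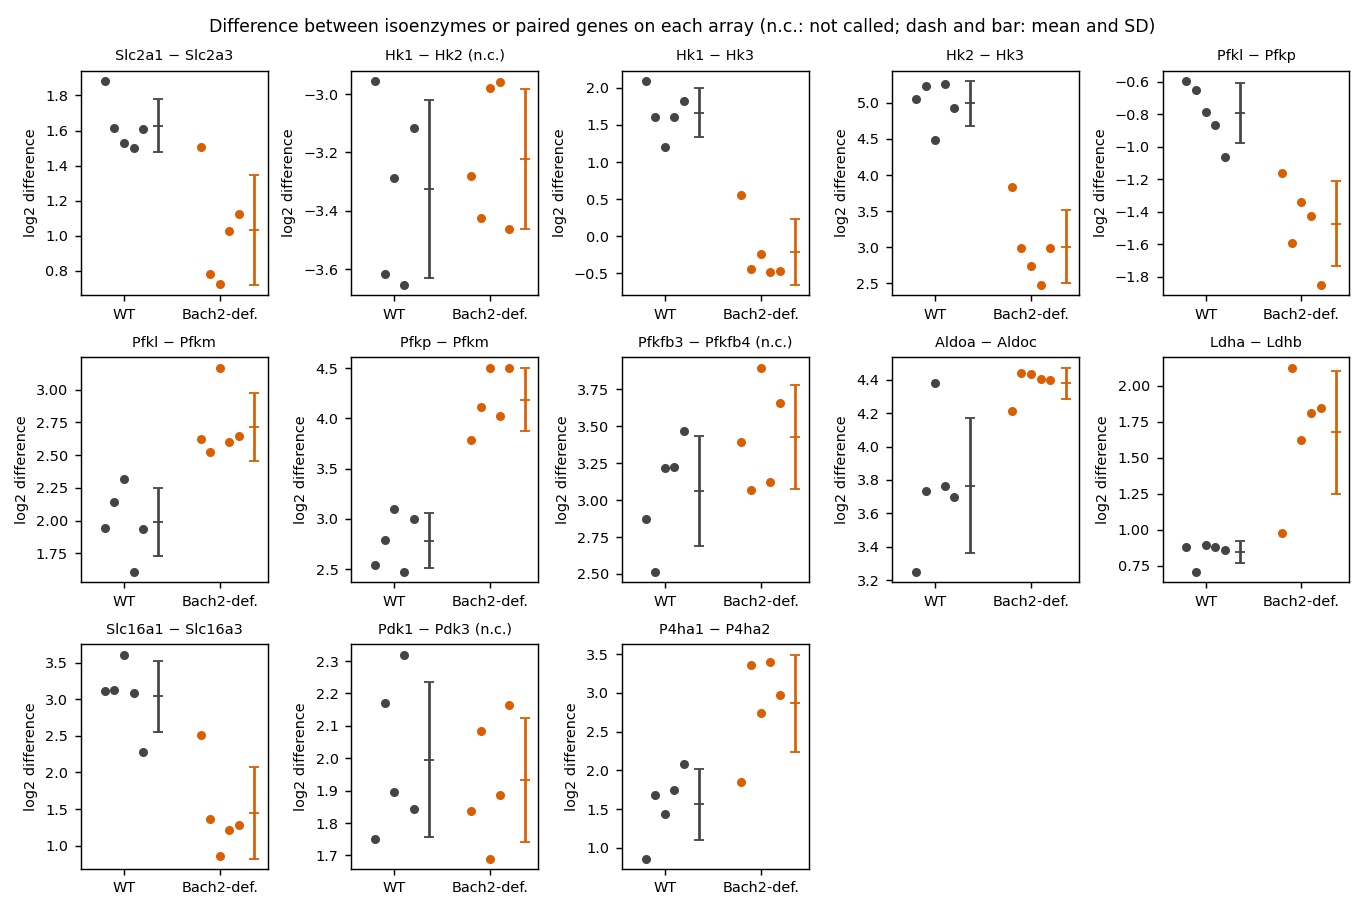
Log2 level of the first gene minus that of the second (vertical axis, a separate range in each panel) on each wild-type (grey) and Bach2-deficient (orange) array, for 13 pairs; the dash and bar are the mean and SD, and n.c. marks pairs that were not called. Hk2 minus Hk3 drops from a mean of 4.99 to 3.01, and Ldha minus Ldhb climbs from 0.84 to 1.68.

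Several members were read by more than 1 probe set, which gives a second reading of the same gene. Of 18 such members, 16 had all probe sets pointing the same way, and Aldoa and Pfkl did not. Among the 66 probe sets of members, 20 rose and 5 fell when tested over all 34945 single-gene probe sets (24.2% called, 14.1% rose and 10.1% fell). Hk3 was matched by its other probe set at 2.48 (adjusted p = 0.000132 over all probe sets), and all 5 probe sets of Ndrg1 rose. For Hk1, the probe set that stands for the gene did not pass over all probe sets (0.49, adjusted p = 0.0551). Its other probe set rose by 0.73 (adjusted p = 0.00389 over all probe sets), and the mean of its probe sets rose by 0.61 (adjusted p = 0.00699). The 4 probe sets of Ldhb lay between -0.68 and -0.57, and none passed over all probe sets. Another Pfkp probe set rose by 2.32 (adjusted p = 0.000613 over all probe sets), against 0.78 for the one that stands for the gene. One Pdk1 probe set changed by -1.34 (adjusted p = 0.00767 over all probe sets), while the one that stands for the gene changed by -0.12. Averaged over its 4 probe sets Pdk1 fell (-0.53, adjusted p = 0.00700), and Ldhb (-0.62, adjusted p = 0.0634) and P4ha1 (0.27, adjusted p = 0.128) did not pass. For Pgk1, the probe set that stands for the gene changed by -0.03 and another by -0.37 (adjusted p = 0.0340 over all probe sets).

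**Figure D4:**
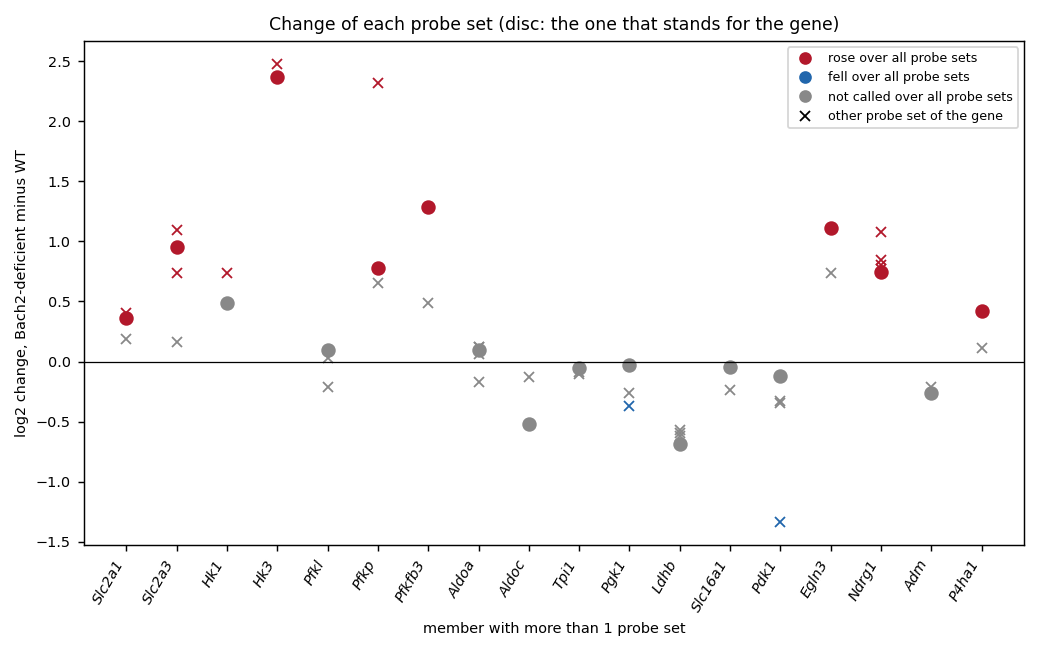
Log2 change (vertical axis) of every single-gene probe set of the 18 members with more than 1; discs are the probe sets that stand for the gene, crosses the others, and colour gives the call over all probe sets. The Pfkp and Pdk1 crosses at 2.32 and -1.34 lie far from their discs.

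The Bach2-deficient tumors were not alike in these genes. For all 15 called members, replicate 1 was the Bach2-deficient tumor nearest to the wild-type mean, and the same held for 71.2% of all 5226 called genes. Its leukocyte list mean (12.15) was the lowest of the group and its melanocyte list mean (12.46) the highest. Replicate 3 was highest of its group for 7 of the 11 members that rose (Slc2a1, Slc2a3, Hk1, Pfkp, Pfkfb3, Slc16a3 and Egln3), while it was highest for 16.3% of all genes that rose. That tumor had a neutrophil list mean of 9.60, close to replicate 4 (9.51) and above the remaining 3 (7.67 to 8.16). By gene the 2 tumors were unlike, with Cxcr2 at 10.80 on replicate 3 and 7.94 on replicate 4, and Camp at 5.76 and 9.46. The macrophage and monocyte list mean was also highest of the group on replicate 3 (11.68, the others 10.71 to 11.55). Whether the neutrophil genes or the macrophage and monocyte genes are linked to the high members of replicate 3 was not tested.

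Bach2-deficient replicate 2 is the tumor of that group with high Xist, as on all wild-type arrays. It lay outside the wild-type range on the called side for all 15 called members, as it did for 97.8% of all called genes, and for all 10 called pairs. When Xist level (high or low) entered the model, the genotype change rested on that tumor against the 5 wild-type tumors. Hk3 (2.54, adjusted p = 0.0186) and Pfkfb4 (1.44, adjusted p = 0.0281) then rose and no member fell, where 7.79% of all genes were called (5.66% rose and 2.13% fell). The other 13 called members did not pass. Slc16a3 was then 1.55 and Pfkp 0.77, near their values without the term, while Ldhb was -1.18 and P4ha2 -1.25, beside -0.68 and -0.88 without it. The mean of the melanocyte genes itself moved largely with genotype. It was 12.27 to 12.49 in wild type and 12.46 on Bach2-deficient replicate 1, but 11.78 to 12.12 on the other Bach2-deficient arrays. Changes adjusted for it therefore lean on replicate 1, and what the adjustment accounts for was not tested. After adjustment for this mean, Hk3 alone rose (1.83, adjusted p = 0.00805) and no member fell, where 4.92% of all genes were called (3.48% rose and 1.44% fell). Of the members that fell, Ldhb was then -0.11, Car9 -0.23, P4ha2 -0.39 and Pfkm -0.53, beside -0.68, -0.62, -0.88 and -0.63 without the adjustment. Of those that rose, Pfkfb4 was 0.48 and P4ha1 0.22, beside 0.92 and 0.42, while Pfkp (0.71) and Ndrg1 (0.79) stayed near 0.78 and 0.75.

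**Figure D5:**
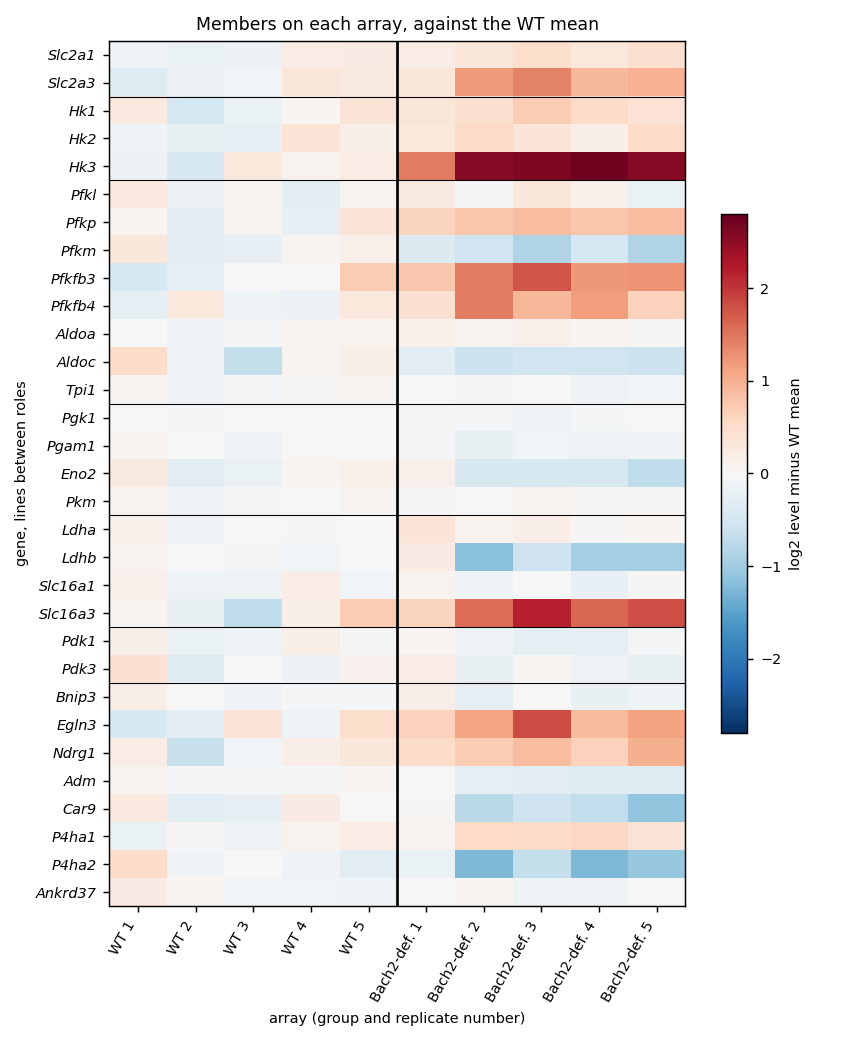
Log2 level minus the wild-type mean (colour scale, log2 units) of the 31 members (rows, with lines between roles) on each of the 10 arrays (columns, by group and replicate). Hk3 and Slc16a3 are strongest on Bach2-deficient replicates 2 to 5, and for the 15 called members replicate 1 is the palest of its group.

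Other genes of the pathway were held on lists separate from the members. Of 39 measured, 3 rose and 3 fell, which is 15.4%, beside 28.7% of all genes. None of the 7 HIF and oxygen-sensing genes passed with all arrays and the brightest probe sets. Hif1a, the oxygen-regulated subunit, changed by 0.24 (adjusted p = 0.0579; groups not overlapping, all Bach2-deficient tumors higher). It passed with the mean of all its probe sets, at a far larger value (0.92, adjusted p = 0.00321), with trended robust moderation (adjusted p = 0.0155), with array weights (0.27, adjusted p = 0.0289) and without Bach2-deficient replicate 1 (0.29, adjusted p = 0.0257). Epas1, encoding HIF-2α, changed by -0.05. Vegfa, the angiogenic growth factor gene that hypoxia induces, read 9.91 to 10.07 in wild type and 9.57 to 10.14 in Bach2-deficient tumors and changed by -0.08. Of 11 further HIF-responsive genes, the transcriptional repressor gene Bhlhe40 rose by 0.46 (SE 0.12, limma adjusted p = 0.0203) and the lipid droplet gene Hilpda by 0.42 (SE 0.12, limma adjusted p = 0.0283). Hilpda did not pass without wild-type replicate 1, 2 or 4 or Bach2-deficient replicate 3 or 5 (0.35 to 0.48, adjusted p up to 0.0696), with repeated quantile normalization (0.34, adjusted p = 0.0852) or with median centring (0.26, adjusted p = 0.177). Bhlhe40 did not pass without Bach2-deficient replicate 2 (0.45, adjusted p = 0.0503) or with median centring (0.30, adjusted p = 0.0655). Lox, lysyl oxidase of collagen crosslinking, fell by 1.67 (limma adjusted p = 0.00242), from 9.34 ± 0.47 to 7.66 ± 0.55 with no overlap.

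Among 14 further glycolytic isoenzymes and transporters, Slc2a6, a hexose transporter gene of leukocytes, rose by 1.20 (SE 0.30, limma adjusted p = 0.0138). Slc16a7, encoding the monocarboxylate transporter MCT2, fell, with a change of -0.68 (SE 0.18, limma adjusted p = 0.0185), and did not pass without Bach2-deficient replicate 4 (-0.60, adjusted p = 0.0501). Bpgm makes 2,3-bisphosphoglycerate in red cells and had the largest change of these lists, -2.45 (SE 0.35, limma adjusted p = 0.000925), from 11.78 to 13.37 in wild type and 9.28 to 10.66 in Bach2-deficient tumors. It fell with the red cell genes Slc4a1 (-5.13) and Alas2 (-4.16), and their part in its fall was not tested. None of the 7 genes of pyruvate entry into mitochondria passed, with changes from -0.25 to 0.32. With the mean of all probe sets, 7 genes of these lists rose and 6 fell.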

How the data were processed

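Per the labels, total RNA of dissociated B16 tumors was extracted with Trizol and biotin-labelled cRNA hybridised to 1 array per sample. The authors deposited log2 expression values, made with RMA and Partek according to the submitters' processing notes (versions not given in the sources used here). These deposited values ran from 1.99 to 14.4 with array medians from 5.80 to 5.88, and were used as deposited; the number of arrays limits the precision. Of 45101 probe sets, 64 were controls, 932 had several symbols and 34945 had 1, from the platform annotation. Each of 18193 genes took its probe set with the highest mean over the 10 arrays. The genotype difference was estimated for each gene by limma (version 3.58.1, under R 4.3.3) with lmFit and eBayes, and 2-sided p-values were adjusted over 18193 genes (Benjamini-Hochberg). On simulated data with the spread of this comparison (18193 genes, 200 changed, independent noise), the fit called 56% of genes changed by 1 and 91% of those changed by 2 on the log2 scale. In the real data 28.7% of genes were called, a far larger share than was changed in the simulation. These rates are therefore not the power of the real comparison. Isoenzyme pairs were compared with exact permutation tests over the 10 arrays, 2-sided, adjusted over 13 pairs. Groups and replicate numbers came from the sample titles. Whether each tumor came from its own mouse is not stated, and p-values therefore reflect only how far these 10 samples vary, possibly for technical reasons. The members, lists and pairs were chosen with earlier results of these data known. Named genes were all members, up to 4 called genes of each pathway list, and Hif1a, Epas1 and Vegfa. The alternatives were other probe set rules, scalings, filters, moderation, weights, a replicate block, a melanocyte covariate, an Xist term and leaving out each array; the test of the Gapdh controls and its alternatives were added after seeing the data. Promoter sequences are from RefSeq (GRCm38.p6); other coordinates are not used here.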

Additional observations from a re-analysis of the deposited data

Results flagged for a closer look

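Within each group of 5 arrays, members and pairs were checked for 1 value that stands apart from the other 4 by more than 0.71 of the group's range. This was met 9 times in 88 groups. Chance gives about 1 in 20 for a single group, but the groups are not independent, since the pairs are built from members that were checked too. Hk1 minus Hk3 and Aldoa minus Aldoc thus repeat the flags of Hk3 and Aldoc. Bach2-deficient replicate 1 was the array in 4 of the 9. It was low for Hk3 (8.38, the others 9.47 to 9.62), high for Aldoc (9.38, the others 9.08 to 9.15), high for Hk1 minus Hk3 (0.56, the others -0.48 to -0.24) and low for Aldoa minus Aldoc (4.22, the others 4.40 to 4.44). Bach2-deficient replicate 3 was high for Pkm (12.85, the others 12.76 to 12.78) and for Pfkl minus Pfkm (3.17, the others 2.53 to 2.65). Among wild-type arrays, replicate 3 was low for Pgam1 (12.68, the others 12.81 to 12.85), replicate 1 high for Bnip3 (13.04, the others 12.77 to 12.84) and replicate 2 low for Ldha minus Ldhb (0.71, the others 0.86 to 0.89).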

How the results depend on the processing

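Counts of members that rose and fell were 11 and 4. They stayed within 1.5 times of these under both probe set rules, repeated quantile normalization, the dim-gene filter, trended robust moderation and the replicate block. With array weights 7 members fell, and with median centring 8. With the melanocyte covariate 1 rose and 0 fell, and with the Xist term 2 rose and 0 fell. Leaving out 1 array gave 8 to 11 that rose and 2 to 6 that fell. Of the other pathway genes, where 3 rose and 3 fell, 7 and 6 did with the mean of all probe sets, 5 fell with repeated quantile normalization, 1 rose and 8 fell with median centring, 5 fell with the dim-gene filter, 5 rose with trended robust moderation, 7 rose and 6 fell with array weights, 6 fell with the replicate block, and 0 rose with the covariate or the Xist term. Without 1 array 2 to 6 of them rose and 2 to 5 fell.

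Hk3, Slc2a3, Pfkp, Pfkm, Pfkfb3, Pfkfb4, Slc16a3, Egln3, Ndrg1 and P4ha2 kept their calls in every fit that left out 1 array. No called member changed sign under any setting. Uncalled genes that changed sign were Pfkl at -0.026 (mean of probe sets), -0.037 (quantile), -0.064 (median centring) and -0.031 (Xist term); Epas1 at 0.050 (mean of probe sets), 0.097 (array weights) and 0.64 (Xist term); and Pkm at -0.0025 (quantile) and -0.11 (median centring). Under median centring Aldoa (-0.065) and Ldha (-0.0099) turned too. With the melanocyte covariate Tpi1 (0.029), Pgk1 (0.0097), Slc16a1 (0.14), Pdk1 (0.046), Pdk3 (0.14), Bnip3 (0.13) and Vegfa (0.18) did, and with the Xist term Ankrd37 (0.063). Without 1 array, Slc16a1 ran from -0.082 to 0.0017, Pdk3 from -0.15 to 0.048, Ankrd37 from -0.079 to 0.0077, Epas1 from -0.23 to 0.12 and Vegfa from -0.13 to 0.0094. The cause was not tested.

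Of the pairs, all 10 called ones stayed called without any 1 array. Pfkfb3 minus Pfkfb4 turned to -0.031 with the mean of all probe sets, where Aldoa minus Aldoc was 0.37 (not called) and Pdk1 minus Pdk3 was -0.48 (called). Slc2a1 minus Slc2a3 was -0.38 without _x_at and _s_at probe sets. Under repeated quantile normalization Hk1 minus Hk2 was -0.0064 and Pdk1 minus Pdk3 was 0.020, and the latter ran from -0.12 to 0.018 without 1 array. With arrays centred on the median, an alternative chosen after seeing the data, the Gapdh controls turned to -0.076 (3′), -0.0039 (M) and -0.076 (5′). The Gapdh 3′ minus 5′ difference ran from -0.012 to 0.013 and that of Actb from -0.34 to -0.22 (exact permutation p under 0.05 without Bach2-deficient replicate 1 or wild-type replicate 4).

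Same-numbered arrays of both groups correlated at 0.006 to 0.323 in their deviations from the group means, and 4 of 10 arrays correlated best with their own number, so the numbers are not taken as pairs. With the replicate block 9 members rose and 4 fell, as Slc2a1 (adjusted p = 0.0638) and Hk1 (adjusted p = 0.0826) did not pass, and of the other pathway genes Bhlhe40 (adjusted p = 0.0567) did not. For the isoenzyme differences the paired sign-flip test with the block cannot go below a p of 0.0625, so none can pass there, and the differences are the same by construction: Slc2a1 minus Slc2a3 -0.59, Hk1 minus Hk3 -1.88, Hk2 minus Hk3 -1.98, Pfkl minus Pfkp -0.68, Pfkl minus Pfkm 0.72, Pfkp minus Pfkm 1.41, Aldoa minus Aldoc 0.61, Ldha minus Ldhb 0.83, Slc16a1 minus Slc16a3 -1.60 and P4ha1 minus P4ha2 1.31. Over all genes the share called ran from 4.92% with the melanocyte covariate to 39.6% with the dim-gene filter. Dim genes were not tested for presence.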
